A study of Mus musculus with 6 samples.

Results

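Vessels of the spinal cord were followed here through 10 genes that mark endothelial cells, the cells that line blood vessels. The genes are Vwf and Ackr1, which are used as venule markers, Car4, Ptn, Acer2, Nostrin and Mfsd2a, which are used as capillary markers, and Cldn5, Flt1 and Pecam1, which mark endothelium of any calibre. They were taken by symbol from a matrix of 19954 genes, all 10 were found, and they were chosen with earlier results of these data in view, including the comparison of stimulated with unstimulated mice in endothelial nuclei. Their values in endothelial nuclei are therefore given as a description, with no p-value. Where a fit over all genes called a member there, the call is stated but is not taken as evidence.

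The samples were single-nucleus RNA libraries of spinal cord from C57BL/6 wild-type mice with a severe thoracic contusion that left the hind limbs paralysed. The sample labels name the lumbar cord as the source, while the extraction protocol speaks of dissecting the thoracic injury, so the segment that was sampled is not settled. All mice spent 30 min on a treadmill before the tissue was taken. In the TESS group (3 samples) targeted epidural electrical stimulation let the mice walk, together with drugs that activate 5-HT1a (serotonin) and D1 (dopamine) receptors. In the CON group (3 samples) there was no stimulation and the legs stayed paralysed. The labels do not say whether CON mice received these drugs, so stimulation, walking and the drugs cannot be told apart, and they give neither the age nor the sex of the mice. Separate animals are not stated for the samples, so the spread between samples, on which p-values rest, may be partly technical.

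Along a vessel tree, endothelial cells change their gene programme gradually from artery to capillary to vein. Capillary endothelium of the central nervous system forms the blood-brain barrier, with tight junctions, little vesicle transport across the cell and dedicated nutrient carriers. Venule endothelium is the site where platelets and white blood cells attach, and it carries adhesion molecules, chemokine-binding receptors and stores of von Willebrand factor.

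The upstream sequences of 4 members are shown first, because these are the members whose promoters could be read from RefSeq and whose CON and TESS samples do not overlap in endothelial nuclei. Each window runs from 250 bases before to 50 bases after the RefSeq start of transcription, on the strand of the gene, in build GRCm38.p6. Nostrin lies at chr2:69135550-69135849 on the plus strand, Acer2 at chr4:86874164-86874463 on the plus strand, Car4 at chr11:84957504-84957803 on the plus strand and Ptn at chr6:36810130-36810429 on the minus strand. Capitals mark matches to any of 6 short motifs searched on both strands.
Nostrin: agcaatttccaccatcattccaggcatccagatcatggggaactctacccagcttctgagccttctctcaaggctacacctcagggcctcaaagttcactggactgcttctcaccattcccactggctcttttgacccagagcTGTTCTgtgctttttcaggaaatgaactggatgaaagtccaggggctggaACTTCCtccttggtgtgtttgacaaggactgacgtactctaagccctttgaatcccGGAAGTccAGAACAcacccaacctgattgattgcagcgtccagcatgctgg
Acer2: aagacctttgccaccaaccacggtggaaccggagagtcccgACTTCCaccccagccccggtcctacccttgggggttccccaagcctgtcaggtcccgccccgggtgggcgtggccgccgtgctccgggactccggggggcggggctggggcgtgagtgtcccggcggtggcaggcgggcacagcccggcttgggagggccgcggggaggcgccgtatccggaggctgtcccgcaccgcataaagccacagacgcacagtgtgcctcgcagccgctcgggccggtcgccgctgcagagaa
Car4: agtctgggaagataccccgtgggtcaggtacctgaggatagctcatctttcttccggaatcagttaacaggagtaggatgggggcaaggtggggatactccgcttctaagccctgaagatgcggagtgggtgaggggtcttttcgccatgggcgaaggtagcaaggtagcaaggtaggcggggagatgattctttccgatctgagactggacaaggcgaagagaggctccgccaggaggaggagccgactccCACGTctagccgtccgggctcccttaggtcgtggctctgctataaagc
Ptn: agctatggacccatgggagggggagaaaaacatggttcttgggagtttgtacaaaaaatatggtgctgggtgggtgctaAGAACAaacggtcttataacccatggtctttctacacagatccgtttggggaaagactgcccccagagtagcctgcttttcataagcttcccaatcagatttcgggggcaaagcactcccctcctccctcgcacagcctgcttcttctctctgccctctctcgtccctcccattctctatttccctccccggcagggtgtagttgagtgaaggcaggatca

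The motifs were GGAAGT for ETS factors, AGATAA for GATA factors, TGTTTAC for forkhead factors, TGANTCA for AP-1, ACGTG for the hypoxia response and AGAACA for the glucocorticoid receptor. No motif shared letters with another match in these windows. The Nostrin window held the ETS letters at -57 and -1 and the glucocorticoid letters at -107 and 7, counted with the start base as 0. The Acer2 window held only the ETS letters, at -209, the Car4 window only the hypoxia letters, at 2, and the Ptn window only the glucocorticoid letters, at -171. Among 32851 promoters of the same length, 23.8% held the ETS letters, 19.0% the glucocorticoid letters, 19.6% the hypoxia letters, 11.2% the GATA letters, 7.81% the AP-1 letters and 3.65% the forkhead letters. Of the 8 members with a promoter in the table, Flt1 held an ETS match, Mfsd2a 2 hypoxia matches, Ackr1 a GATA match and Cldn5 none of the 6. Base composition also differed, with 73% G and C in the Acer2 window and 51% in the Nostrin window against a median of 52.7% over all promoters. A match in these letters is not evidence of binding.

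The deposited matrix held 18514 nuclei, of which 6035 were neurons by the authors' annotation. The series text states 20484 nuclei and 6171 neurons. The authors' endothelial class held 221 nuclei and 255141 unique molecular identifiers (UMIs, each 1 captured RNA molecule), or 1.40% of all UMIs. It had between 25 and 62 nuclei per CON sample and between 25 and 38 per TESS sample, with 25960 to 76339 UMIs per sample. Of 18308 distinct cell barcodes, 204 occurred in 2 libraries and 1 in 3 libraries, and 2 endothelial nuclei carried such a barcode. CON 1, CON 2 and TESS 1 carry one batch number, 3, and each other sample has its own, and what a batch stands for is not stated.

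The markers of the class went with its label, with a second vascular cell type beside them. The authors' cell types were clustered with such genes, Cldn5, Flt1 and Pecam1 among them, so this is a description and no separate check. All 12 endothelial markers were detected, and 216 of 221 nuclei (97.7%) held at least 1 UMI of them. Their summed level was 14656 to 20770 CPM (the UMIs of a gene over all UMIs of the class, scaled to a common total) in CON and 17598 to 23960 CPM in TESS, against 75.7 CPM in all other nuclei. Markers of mural cells, the pericytes and smooth muscle cells around vessels, summed to 5339 to 7493 CPM in CON and 5162 to 6784 CPM in TESS. Of 10 mural markers 9 were detected, and 144 nuclei (65.2%) held at least 1 UMI of them. These were pericyte genes, with 629 UMIs of Rgs5 and 684 of Vtn, while the smooth muscle genes Tagln, Acta2 and Myh11 had 0, 1 and 4 UMIs. Haemoglobin and other blood genes summed to 208 to 3033 CPM in CON and 977 to 10285 CPM in TESS, and the white cell genes Ptprc, Ly6g and Cd3e had no UMI. Summed levels ranged from 451 to 1072 CPM in CON and 924 to 1786 in TESS for astrocyte markers, from 1022 to 2997 and 690 to 1271 for oligodendrocyte markers, and from 555 to 1780 and 431 to 2460 for neuron markers. Fibroblast markers summed to 760 to 1040 CPM in CON and 578 to 2518 CPM in TESS, against 1964 CPM in all other nuclei, with TESS 3 the highest. Of these genes Apod had 228 UMIs and Col1a1 had 2, and 94 nuclei (42.5%) held at least 1 UMI of the list. The part of these cells in the results was not tested, except where values within subsets of nuclei are given.

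Endothelial nuclei made up 1.18 ± 0.454% (SD, n = 3) of nuclei in CON and 1.19 ± 0.211% (SD, n = 3) in TESS. The difference of 0.0037 percentage points was within the spread between samples (exact two-sided permutation test, p = 1, where 3 against 3 allows no p below 0.1).

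For 7 of the 10 genes each endothelial sample lay above every sample of every other cell type. Because the cell types were clustered with these genes, that contrast is a description. Cldn5, the main tight junction claudin of brain vessels (chr16:18776847-18778262, plus strand), had 843 UMIs in endothelial nuclei and 31 in all others. Car4, a carbonic anhydrase anchored to the luminal membrane (chr11:84957786-84966044, plus strand), had 225 and 20. Nostrin, an adaptor that controls the trafficking of endothelial nitric oxide synthase (chr2:69135800-69189330, plus strand), had 224 and 20. Vwf, von Willebrand factor, the glycoprotein that tethers platelets to the vessel wall (chr6:125546774-125686679, plus strand), had 134 and 20. These 4 genes were close to absent elsewhere: no other class reached a mean of 20 CPM in either group for any of them.

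Flt1, a receptor for vascular endothelial growth factor (chr5:147561604-147726011, minus strand), had 1162 endothelial UMIs and 164 elsewhere, of which 133 were in microglia. Pecam1, an adhesion molecule of endothelial junctions (chr11:106654217-106750628, minus strand), had 156 endothelial UMIs and 69 elsewhere, 51 of them in neurons. Acer2, a ceramidase of the Golgi that releases sphingosine (chr4:86874396-86934822, plus strand), had 76 endothelial UMIs and 111 elsewhere, 86 of them in oligodendrocytes. Because oligodendrocytes hold many more UMIs in total, that amounted to 19.98 ± 9.84 CPM in CON and 18.5 ± 3.03 CPM in TESS (SD, n = 3 each), well below the endothelial level of 298 CPM over all samples together.

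The other 3 genes were not particular to vessels in this tissue. Mfsd2a, a lysolipid transporter that restrains vesicle transport across barrier endothelium (chr4:122946850-122961188, minus strand), had 17.6% of its 415 UMIs in endothelial nuclei and 47.7% in astrocytes. Its level was 273 ± 80.4 CPM in CON and 291 ± 130 CPM in TESS in endothelial nuclei, and 218 ± 38.0 and 315 ± 66.1 CPM in astrocytes, so these classes overlapped. Oligodendrocyte precursors (OPC) followed with 175 ± 26.7 and 114 ± 29.8 CPM. Ptn, the secreted growth factor pleiotrophin (chr6:36714929-36810220, minus strand), had 8.05% of its 6659 UMIs in endothelial nuclei, with 2707 in oligodendrocytes and 2282 in neurons. In CON its order by level was endothelial nuclei, OPC, oligodendrocytes, astrocytes, neurons and microglia, and in that order the samples of neighbouring classes did not overlap. In TESS endothelial nuclei (1040 to 1142 CPM) fell inside the range of OPC (992 to 1643 CPM).

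Ackr1, the atypical chemokine receptor that marks venules in other tissues (chr1:173331886-173333750, minus strand), was counted mainly outside the vessels. Of its 217 UMIs, 191 (88.0%) were in neurons and 5 in endothelial nuclei. Those 5 came from 4 nuclei, 2 UMIs in CON 2, 1 in TESS 1 and 2 in TESS 2, and CON 1, CON 3 and TESS 3 had none. Ackr1 shares 493 bases with Cadm3, a neuronal adhesion gene on the same strand (chr1:173333258-173367695), and 361 of the 1405 exonic bases of Ackr1 lie in exons of both. Which of the 2 genes gave a read there is uncertain. Cadm3 itself had 1651 of its 1808 UMIs (91.3%) in neurons. The other 9 members overlap no annotated gene in GENCODE vM21. Of the leukocyte adhesion genes of venules, Selp had no UMI in endothelial nuclei, while Vcam1 had 98 and Icam1 had 34. The venous gene Slc38a5 had 61. The number of nuclei allows no statement on rare venule cells.

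**Figure D1:**
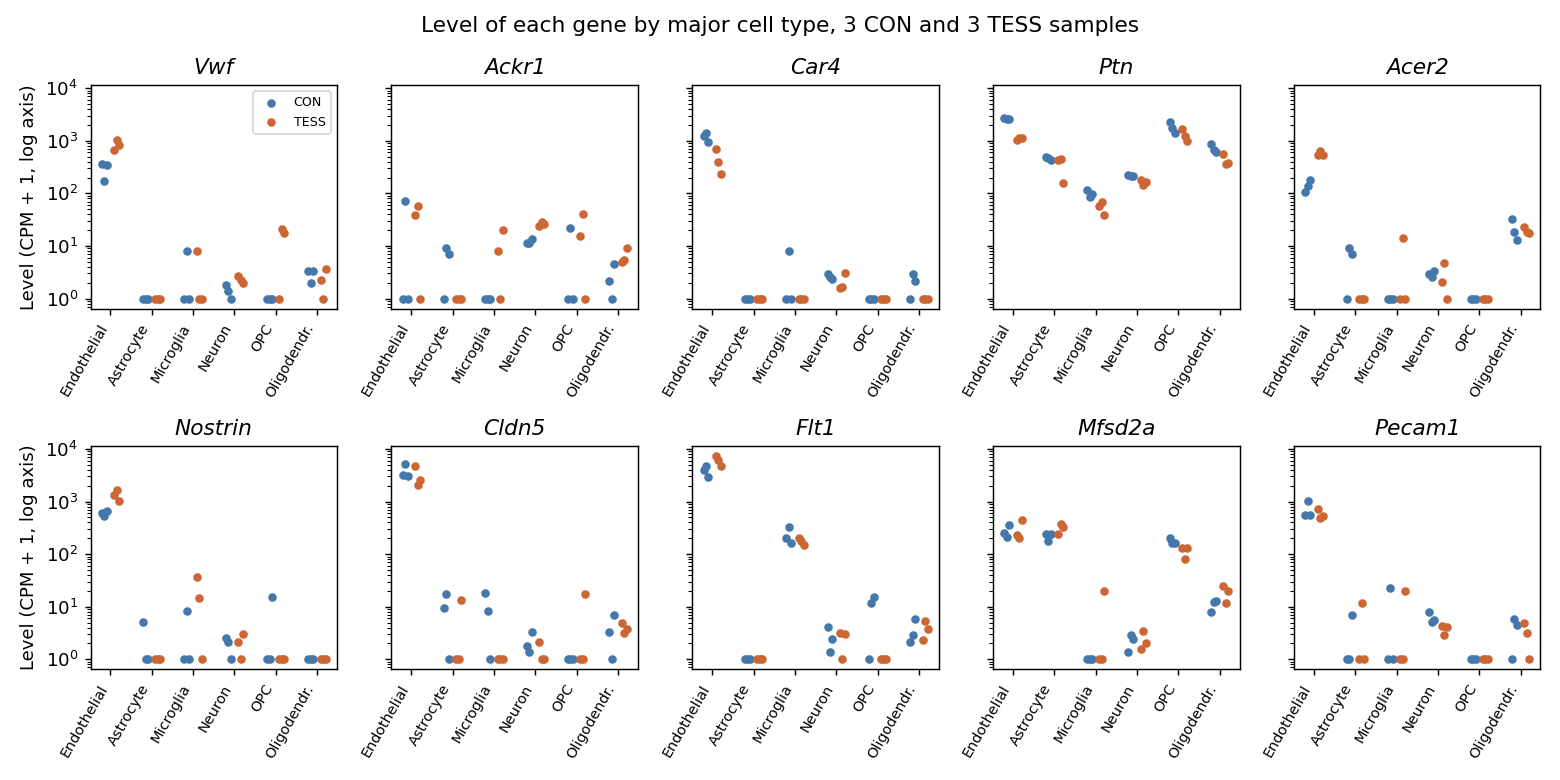
Level of each gene (CPM + 1, log axis) in the 6 major cell types, with 3 CON points in blue and 3 TESS points in orange per cell type. Vwf, Car4, Nostrin and Cldn5 stand high in endothelial nuclei, Ptn and Mfsd2a also reach glial cells, and Ackr1 in neurons lies between 10.4 and 27.4 CPM.

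Over the 36 sums of 6 samples and 6 cell types, the genes most like Vwf by the Pearson correlation of log2(CPM + 10) were Gm694 (r = 0.98), AU021092 (r = 0.98) and Adgrf5 (r = 0.97). Those most like Car4 were Slc22a8, an organic anion transporter, Tbx1 and Kcnj8, a potassium channel subunit of pericytes, each with r = 0.99. For Ackr1 no gene came close, the best being Sorbs2 (r = 0.60), Tshz1 (r = 0.58) and Usp34 (r = 0.58). These correlations describe mainly the contrast of cell types, the sums of 1 sample share a library, and only genes with at least 30 endothelial UMIs (1942 for Vwf) were compared. Adgrf5, an adhesion receptor of endothelium, had 541 ± 218 CPM in CON and 863 ± 87.3 CPM in TESS endothelial nuclei (SD, n = 3 each), and Slc22a8 had 297 ± 38.0 and 212 ± 58.5 CPM.

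In endothelial nuclei, members stood apart between CON and TESS in both directions. The levels of Acer2, Vwf and Nostrin were above those of every CON sample in each TESS sample, and the levels of Car4 and Ptn were below. Cldn5, Flt1, Pecam1 and Mfsd2a overlapped between the groups. Genes used as capillary markers thus appeared on both sides, Car4 and Ptn below and Acer2 and Nostrin above. The fit across all genes was the quasi-likelihood test of edgeR on UMIs summed per sample, with a call at a Benjamini-Hochberg adjusted p below 0.05. It tested 583 genes and called 9 of them, or 1.54% (0.858% higher and 0.686% lower in TESS), with 89 at an unadjusted p below 0.05. Of the 10 members 8 passed its filter on low counts and 3 of these 8 were called, Acer2 higher and Car4 and Ptn lower. None of the 3 was called with batch as a term or inside batch 3. These fits are the same comparison, because CON 3, TESS 2 and TESS 3 are each alone in their batch. Both rest on CON 1 and CON 2 against TESS 1. DESeq2 called Ptn but neither Car4 nor Acer2. In 5 of the 8 the groups did not overlap, 3 above and 2 below, where 23.2% of all tested genes did (12.3% above and 10.8% below). Since the members were picked from this contrast, nothing is read from those counts. Fewer cells of a kind and less RNA per cell cannot be told apart in such sums, and the fold changes, on the log2 scale, are relative to the genes tested.

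Car4 measured 1218, 1387 and 944 CPM in CON 1 to 3 and 693, 402 and 234 CPM in TESS 1 to 3. The lowest CON sample lay above the highest TESS sample, with TESS 1 nearest to it. The log2 fold change was -1.54 ± 0.33 (SE), and it ranged from -1.96 to -1.27 when each sample was left out in turn. It was -1.05 within the single batch that holds CON 1, CON 2 and TESS 1. These values rest on 185 UMIs in CON and 40 in TESS.

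Ptn was the member with the least spread. Its CON samples stood at 2764, 2635 and 2615 CPM and its TESS samples at 1040, 1121 and 1142 CPM. The groups were far apart relative to their spread, with a log2 fold change of -1.37 ± 0.19 (SE), -1.45 to -1.32 without each sample in turn and -1.52 within batch 3.

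Acer2 moved the other way, from 105, 139 and 182 CPM in CON to 539, 632 and 527 CPM in TESS. Every TESS sample was above every CON sample, on 22 UMIs in CON and 54 in TESS. The log2 fold change was 1.91 ± 0.35 (SE), with a range of 1.59 to 2.17 over the samples left out and 2.02 within batch 3. Acer2 passed the low-count filter only through its TESS samples, so it had to differ, and its call says nothing beyond its levels. With any single sample left out neither Car4 nor Acer2 was called, and Ptn was called in 3 of the 6 fits, while every sign stayed as it was.

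Nostrin measured 616, 520 and 654 CPM in CON and 1310, 1638 and 1025 CPM in TESS. The groups did not overlap, and the log2 fold change of 1.03 ± 0.25 (SE), 1.03 within batch 3 too, was not called. Mfsd2a, the remaining capillary gene, did not pass the filter. Its levels were 249, 208 and 363 CPM in CON and 231, 201 and 439 CPM in TESS, with replicate 3 the highest in both groups and full overlap.

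Of the venule genes, only Vwf could be followed. Its levels were 367, 173 and 345 CPM in CON and 655, 1035 and 849 CPM in TESS, on 52 and 82 UMIs. The groups did not overlap, CON 2 was the lowest with 5 UMIs, and the log2 fold change of 1.34 ± 0.32 (SE) was not called. It was 1.09 to 1.503 without each sample in turn and 0.99 within batch 3. Ackr1, with 5 UMIs, gives no comparison in endothelial nuclei.

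Among the genes of all endothelium, Flt1 measured 3904, 4820 and 2869 CPM in CON and 7396, 6180 and 4685 CPM in TESS. TESS 3 fell below CON 2, so the groups overlapped, with a log2 fold change of 0.56 ± 0.21 (SE), 0.62 within batch 3. Cldn5 measured 3209, 5201 and 3069 CPM in CON and 4700, 2041 and 2518 CPM in TESS, and its log2 fold change of -0.40 ± 0.29 (SE) changed to 0.03 within batch 3. Pecam1 measured 550, 1006 and 563 CPM in CON and 732, 489 and 527 CPM in TESS, with a log2 fold change of -0.32 ± 0.31 (SE), -0.17 within batch 3. Neither Cldn5 nor Pecam1 differed by more than the spread between samples.

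**Figure D2:**
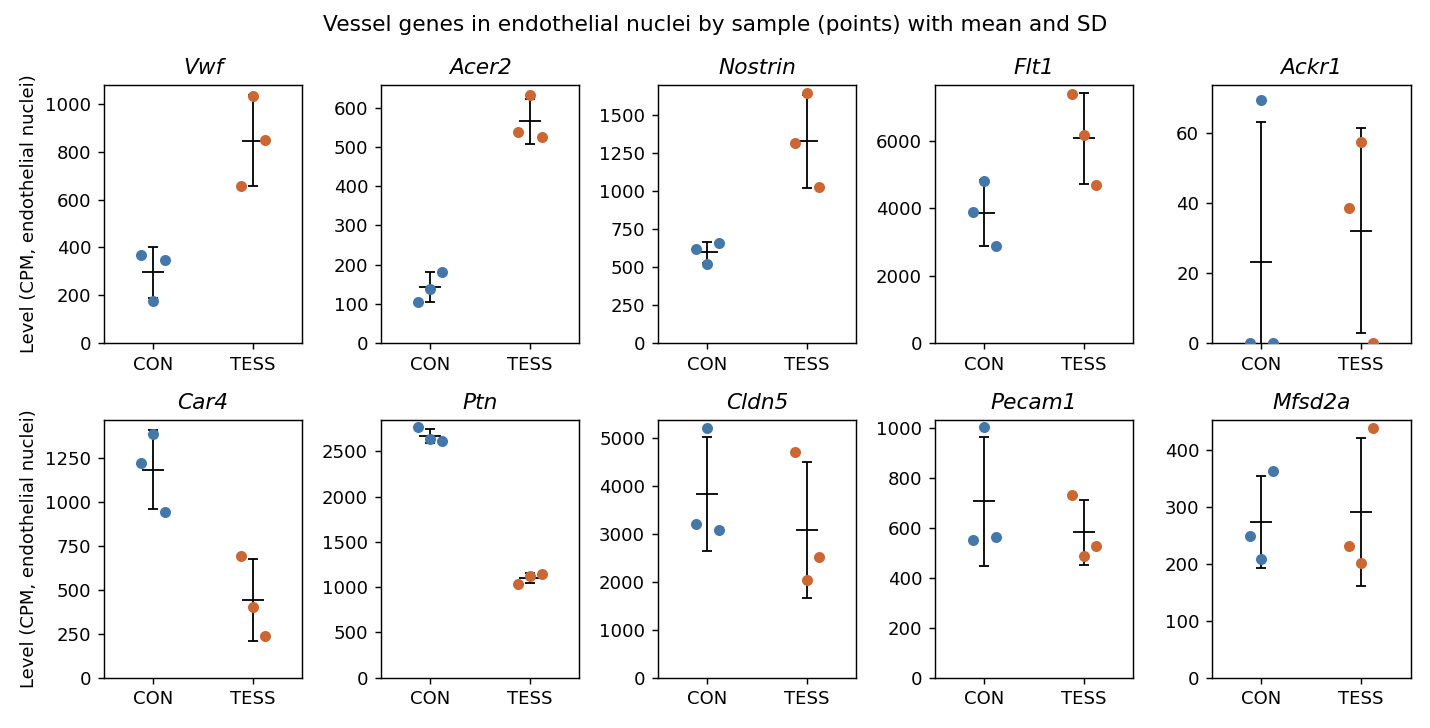
Level of each gene (CPM) in endothelial nuclei, with 1 point per sample, 3 CON in blue and 3 TESS in orange, and the mean and SD in black. Vwf, Acer2 and Nostrin have all TESS points above all CON points, Car4 and Ptn have them below, and the other 5 genes overlap.

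The mean share of endothelial nuclei with at least 1 UMI followed the levels for the 5 members whose levels did not overlap. It was 57.5% of nuclei in CON and 32.6% in TESS for Car4 (means over 3 samples), and 77.0% and 51.3% for Ptn. For Vwf it was 22.4% and 45.9%, for Acer2 14.5% and 38.0% and for Nostrin 42.1% and 62.3%. The Nostrin shares overlapped between the groups, with 60.5% in CON 1 and 57.1% in TESS 3, although its levels did not. Deeper nuclei show more genes, so the shares were also computed at a fixed 300 UMIs per nucleus, which leaves out 13 CON and 10 TESS nuclei with fewer. At that depth Car4 stood at 28.7% and 13.4%, Ptn at 48.6% and 26.1%, Vwf at 8.98% and 23.4%, Acer2 at 4.83% and 18.6% and Nostrin at 17.6% and 35.3%. Every one of these 5 kept its order at equal depth. Flt1 stood at 64.4% and 80.1%, with 53.7 to 69.9% in CON samples and 77.5 to 84.0% in TESS samples, so its groups did not overlap at equal depth, although its levels and its shares without thinning did. Cldn5 at 64.3% and 61.7%, Pecam1 at 18.7% and 17.1% and Mfsd2a at 8.33% and 10.3%. As a measure of free RNA in droplets, neurons, with a median of 1688 UMIs per nucleus, held a UMI of Vwf in 0.149%, of Car4 in 0.232%, of Nostrin in 0.166% and of Cldn5 in 0.149% of 6035 nuclei.

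Capillary and venule genes did not divide the nuclei into exclusive sets. Car4 was found in 33 of the 71 nuclei with Vwf (46.5%, 95% exact binomial interval 34.5 to 58.7%) and in 68 of the 150 without (45.3%, 37.2 to 53.7%). At 300 UMIs per nucleus the shares were 15.004% and 22.9%. Within CON it was in 20 of 28 nuclei with Vwf (71.4%) and 52 of 102 without (51.0%), and within TESS in 13 of 43 (30.2%) and 16 of 48 (33.3%). At 300 UMIs these shares were 25.1% and 28.4% in CON and 9.25% and 13.5% in TESS. Acer2 was found in 28 of the 71 nuclei with Vwf (39.4%, 28.0 to 51.7%) and in 26 of the 150 without (17.3%, 11.6 to 24.4%), and at 300 UMIs in 21.1% and 8.40%. The nuclei with Vwf were deeper, with a median of 866 UMIs against 762, and the gap was wide in CON (1366.5 against 765) and narrow in TESS (794 against 747.5). Vwf and Acer2 were both more frequent in TESS. Within CON Acer2 was in 6 of 28 nuclei with Vwf and 13 of 102 without, and within TESS in 22 of 43 (51.2%) and 13 of 48 (27.1%). Ptn was found in 78 of the 101 nuclei with Car4 (77.2%, 67.8 to 85.0%) and in 66 of the 120 without (55.0%, 45.7 to 64.1%), at median depths of 1025 and 714 UMIs, and the shares at 300 UMIs were 45.8% and 37.1%. Within CON these shares at 300 UMIs were 53.7% with Car4 and 46.4% without, and within TESS the order turned, with 20.1% and 26.1%. Binomial intervals cover counting error only, and nuclei of 1 sample are not independent replicates.

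Because pericyte RNA was present in the class, the levels were also read in nuclei with more UMIs of 9 endothelial markers outside the member list than of the 10 mural markers. This split was chosen after the data had been seen. It placed 169 nuclei on the endothelial side, 45 on the mural side and 7 at a tie, and 24 nuclei lay within 1 UMI of the border. The endothelial side made up 73.1 ± 4.89% (SD, n = 3) of the class in CON and 82.0 ± 5.01% (SD, n = 3) in TESS, with no overlap between the groups (exact two-sided permutation test, p = 0.1, the smallest 3 against 3 can give). The closest samples were CON 2 with 76.0% and TESS 2 with 76.3%. Adgrl4, among the 9 markers, was itself higher in TESS, with 1595 to 2089 CPM in CON and 2752 to 4584 CPM in TESS. Slco1a4, the marker with the most UMIs, overlapped, with 3214 to 3745 and 3564 to 3660 CPM. How far such differences moved nuclei across the border was not tested. The mural side made up 23.2 ± 6.10% in CON and 15.5 ± 7.15% in TESS (SD, n = 3 each), and there the groups overlapped (exact two-sided permutation test, p = 0.3). Inside the endothelial side the mean level of Car4 was 1129 CPM in CON and 440 CPM in TESS, of Ptn 2331 and 880, of Vwf 398 and 857, of Acer2 143 and 652 and of Nostrin 719 and 1489. All 5 members kept their direction there, and in edgeR Ptn and Acer2 were called and Car4 was not. Acer2 again passed the low-count filter only through its TESS samples. Since the members were picked from this contrast, nothing is read from these calls. Ptn was higher on the mural side than on the endothelial side in both groups, at 3369 CPM in CON and 2079 CPM in TESS. Car4 was also present on the mural side, at 1083 CPM in CON and 395 CPM in TESS, with 1, 6 and 1 UMIs in TESS 1 to 3. So was Vwf, at 120 CPM in CON and 831 CPM in TESS, on 6 and 17 UMIs. The mural side held only 13, 5 and 12 nuclei in CON 1 to 3 and 3, 9 and 3 in TESS 1 to 3, so its means are imprecise.

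The wider gene lists of the vessel types showed no called gene beyond the members. For capillary endothelium, 6 of 15 other genes were tested and none was called, with a median log2 fold change of -0.20 against -0.03 over all 583 genes. Among these were Spock2 at -0.27, Hmcn1 at -0.47 and the amino acid transporter Slc7a5 at 0.30. For venous endothelium, 2 of 18 other genes were tested (median -0.08), and none was called. That median has no stable sign: it was 1.04 over 14 genes with no filter on low counts, -0.40 with batch as a term, and -0.16 to 1.38 without each sample in turn. For arterial endothelium 2 of 22 were tested (median -0.48), again with an unstable sign, since the median was 0.02 over 21 genes with no filter, 0.06 with batch as a term, 0.03 inside batch 3 and 0.02 without CON 3. The values with batch as a term and inside batch 3 rest on the same samples. The capillary median was 0.24 with batch as a term and -0.62 without TESS 1. No gene was called among those tested for all endothelium (13 of 17, median -0.05) and for the blood-brain barrier (14 of 25, median -0.06), nor among the arterial genes. The same held for signalling by vascular endothelial growth factor, angiopoietin and Notch (4 of 22 tested, median -0.40) and for endothelial activation and leukocyte adhesion (3 of 24 tested, median 0.07, and 0.998 over 19 genes with no filter). Summed over each list without the members, the venous genes measured 2787 ± 1173 CPM in CON and 4137 ± 1586 CPM in TESS (SD, n = 3 each) and the capillary genes 6788 ± 806 and 6167 ± 438 CPM, with overlap in both cases.

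Most genes of the venous list lay below the filter of the gene test, and their counts are given without a test of the list. In endothelial nuclei 10 venous genes other than Vwf and Ackr1 had at least 10 UMIs and were not tested. In 3 of the 10 all TESS samples lay above all CON samples and in 0 below, where 5.26% and 6.98% of 5060 such genes did. This was not particular to venous genes. In the same range 7 of 17 immediate early, 4 of 9 glucocorticoid-response and 2 of 7 activation and adhesion genes lay above, with 0 below in each list. Of 10 arterial and 9 blood-brain barrier genes 0 lay above, and 1 and 2 lay below. The 3 venous genes are named after their values were seen, and Lcn2 and Lrg1 are in the activation list too. Lcn2, a secreted iron-siderophore binding protein induced in inflamed endothelium, had 1, 0 and 2 UMIs in CON and 9, 14 and 9 in TESS. Tmem252 had 5, 2 and 4 UMIs in CON and 11, 16 and 7 in TESS, and Lrg1, a secreted glycoprotein that acts on vessel growth, had 1, 1 and 6 against 4, 10 and 6. Lcn2, with 3 UMIs in CON, and Lrg1, with 8, reached the cut of 10 UMIs only with their TESS samples, so their place here depends on that cut. When edgeR was run with no filter on low counts, Lcn2 (adjusted p = 0.000249) and Tmem252 (adjusted p = 0.0422) were among the 18 genes called. As both were named after their values were seen, nothing is read from these calls about venous genes.

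Of the capillary list, 8 genes other than the members were in that range. Slc16a4, a monocarboxylate transporter family member, had 12, 4 and 9 UMIs in CON and 3 in each TESS sample, with all TESS levels below all CON levels, and none of the 8 lay above. Tfrc, the transferrin receptor, had 55, 5 and 29 UMIs in CON and 2, 8 and 2 in TESS, with overlapping levels, and was also called when edgeR was run with no filter (adjusted p = 0.00336). The adhesion gene Vcam1 varied more between samples of 1 group than between the groups, with 10, 40 and 2 UMIs in CON and 0, 37 and 9 in TESS. No summed level of venous, capillary or adhesion genes without the members was apart between the groups.

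Of the 9 genes called, 6 are not members. Of 5 immediate early genes tested, 2 rose, Btg2 and Apold1, an early response gene of endothelium. Apold1 went from 152 ± 58.8 to 746 ± 234 CPM (SD, n = 3 each), a log2 fold change of 2.22 ± 0.39 (SE, adjusted p = 0.0168 by edgeR), and Btg2 from 77.9 to 470 CPM, or 2.37 ± 0.41 (SE, adjusted p = 0.0168 by edgeR). Like Acer2, both genes passed the low-count filter only through their TESS samples. They therefore had to differ, and their calls say nothing beyond their levels. Of 4 genes of the glucocorticoid response tested, 1 rose, the metallothionein Mt2, at 1.53 ± 0.28 (SE, adjusted p = 0.0172 by edgeR). The long non-coding nuclear RNA Malat1 fell by 0.95 on the log2 scale (SE 0.18, adjusted p = 0.0199 by edgeR) and Actb, which encodes beta-actin, by 0.91 (SE 0.18, adjusted p = 0.0199 by edgeR). Within batch 3 these log2 fold changes were 2.29 for Apold1, 2.77 for Btg2, 1.06 for Mt2, -0.95 for Malat1 and -0.78 for Actb, none of them called there. Each of the 5 genes was called in 1 or 2 of the 6 fits that leave out a sample. The sixth, Col4a3bp, which encodes a ceramide transfer protein, belongs to no list and is named after its values were seen. It went from 494 ± 71.6 to 1133 ± 50.6 CPM (SD, n = 3 each), a log2 fold change of 1.08 ± 0.24 (SE, adjusted p = 0.0498 by edgeR), was 0.88 within batch 3 and was called in 0 of the 6 fits that leave out a sample. The summed immediate early genes stood at 3025 ± 765 CPM in CON and 6815 ± 216 CPM in TESS, and the summed glucocorticoid-response genes at 2833 ± 171 and 5134 ± 401 CPM (SD, n = 3 each), with no overlap in either.

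Gene length moved with the groups in these libraries, and the members differ in length. Among 565 tested genes that are not members and have an annotated length, the median log2 fold change was -0.22 for 124 genes under 10 kb, -0.16 for 106 genes of 10 to 50 kb and 0.10 for 335 genes over 50 kb. Genes over 50 kb gave 42.2 to 44.3% of endothelial UMIs in CON and 47.6 to 49.8% in TESS, without overlap, and genes under 10 kb gave 24.6 to 26.9% and 20.4 to 22.8%. Malat1 gave 3.61 to 5.69% of endothelial UMIs in CON and 2.47 to 2.66% in TESS. Acer2, Nostrin and Vwf span 60.4, 53.5 and 140 kb, and their log2 fold changes of 1.91, 1.03 and 1.34 lay above the median of their length class. Car4 spans 8.26 kb, in the class with a negative median, and Ptn spans 95.3 kb, in the class with a positive one. The part of length or nuclear RNA content in the members' differences was not tested.

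**Figure D3:**
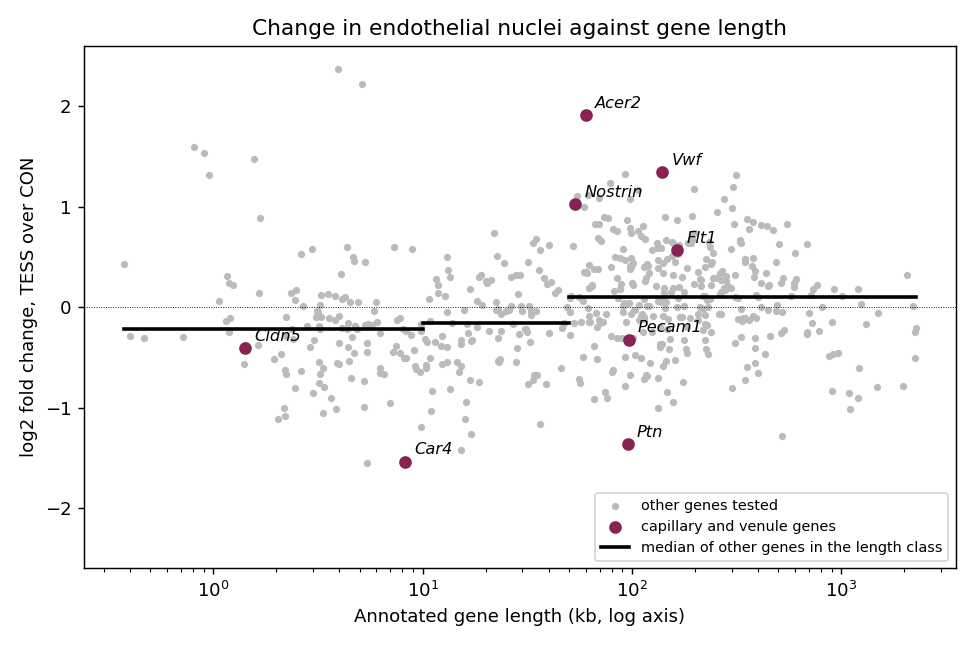
Log2 fold change of TESS over CON in endothelial nuclei against annotated gene length (kb, log axis) for genes tested, with the members in purple and the median of the other genes in 3 length classes as black lines. Longer genes sit higher, with medians of -0.22, -0.16 and 0.10, while Ptn, at 95.3 kb, lies far below its class.

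Outside endothelial nuclei the same fit tested 13250 genes and called 94, or 0.709% (0.219% higher and 0.491% lower in TESS), and 20.7% had groups that did not overlap (10.1% above and 10.6% below). Of the members, 6 were tested there and 1 of them, Ackr1, was called, while the groups did not overlap for Ackr1 (above) and for Ptn and Pecam1 (below). The mean level of Ptn was lower in TESS in each of the 6 cell types. In oligodendrocytes it was 856, 670 and 619 CPM in CON and 561, 355 and 373 CPM in TESS, in neurons 218, 209 and 210 against 179, 147 and 167 CPM, and in microglia 114, 85.6 and 97.7 against 55.9, 67.3 and 37.6 CPM. In these 3 classes the groups did not overlap. In astrocytes the means were 469 ± 30.8 and 346 ± 163 CPM and in OPC 1805 ± 424 and 1298 ± 327 CPM, with overlap. The log2 ratio of the group means was -1.28 in endothelial nuclei, -0.74 in oligodendrocytes, -0.37 in neurons, -0.89 in microglia, -0.44 in astrocytes and -0.48 in OPC. Over all nuclei outside the endothelial class the log2 fold change was -0.58 ± 0.14 (SE), -0.37 within batch 3, and was not called.

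Ackr1 in neurons stood at 10.4, 10.4 and 12.6 CPM in CON and 22.7, 27.4 and 25.4 CPM in TESS. Each CON sample held 27 UMIs, and TESS 1 to 3 held 41, 44 and 25 in fewer neurons. All TESS samples lay above all CON samples, and over all nuclei outside the endothelial class the log2 fold change was 1.19 ± 0.24 (SE). It was 1.09 within batch 3, where it was not called, and 1.06 to 1.31 without each sample in turn, with a call in 2 of the 6 fits. Of 6035 neurons 186 (3.08%) held an Ackr1 UMI. Per 100 UMIs of the overlapping gene Cadm3, Ackr1 had 7.83, 8.21 and 9.09 UMIs in CON and 13.3, 22.1 and 14.5 in TESS. Cadm3 in neurons measured 133 ± 6.20 CPM in CON and 157 ± 28.5 CPM in TESS (SD, n = 3 each), with overlap, so the 2 genes did not keep 1 ratio across the groups. Whether the added reads lay in Ackr1 alone or in the bases shared with Cadm3 cannot be read from gene counts.

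Flt1 in microglia measured 203, 321 and 163 CPM in CON and 203, 175 and 150 CPM in TESS, with overlap and no counterpart of its higher endothelial mean. Mfsd2a in astrocytes measured 243, 174 and 236 CPM in CON and 243, 373 and 329 CPM in TESS, where TESS 1 lay within the CON range. Pecam1 outside endothelial nuclei had 51 UMIs in CON and 18 in TESS, with a log2 fold change of -0.78 ± 0.38 (SE) that was not called. Acer2 outside endothelial nuclei showed a log2 fold change of -0.11 ± 0.33 (SE) and Mfsd2a of 0.17 ± 0.24 (SE). Vwf, Car4, Nostrin and Cldn5 had too few UMIs outside endothelial nuclei to be tested.

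**Figure D4:**
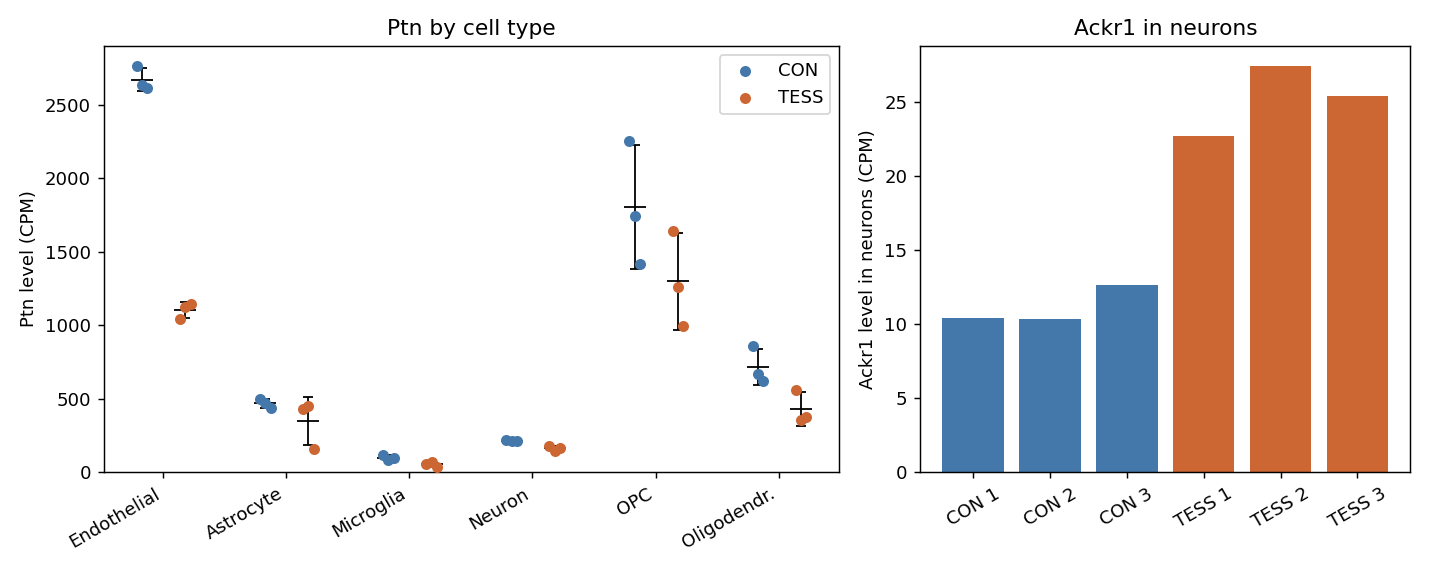
Left, Ptn level (CPM) by cell type with 1 point per sample, CON in blue and TESS in orange, and mean and SD in black; right, Ackr1 level in neurons (CPM) as 1 bar per sample. TESS lies below CON without overlap for Ptn in endothelial nuclei, microglia, neurons and oligodendrocytes, and the 3 Ackr1 bars of TESS (22.7 to 27.4) are above those of CON (10.4 to 12.6).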

How the data were processed

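The deposited matrix holds UMI counts per gene symbol and nucleus, whole numbers with no normalization, and the deposited metadata give sample, batch number, major cell type and mitochondrial fraction. Per the submitters' processing notes, Cell Ranger 2.2.0 and Seurat 3 were used with builds mm10 and GRCm38. Whether counting used strand or introns, how nuclei were filtered and how doublets were treated is not given in the sources used here, and no doublet caller was run. Nuclei of the authors' classes were kept as annotated.

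Counts were summed per sample and class, with CPM over all UMIs of the class. Genes were tested with edgeR 4.0.16 in R 4.3.3 (quasi-likelihood, TMM, filterByExpr with a minimum count of 10), 3 TESS against 3 CON samples, Benjamini-Hochberg over all genes tested. The fit was tested on simulated data. Shares were compared with SciPy 1.17.1. Thinned shares are expectations for 300 UMIs drawn without replacement. Coordinates are from GENCODE vM21 (GRCm38) and promoters from RefSeq (GRCm38.p6), matched by symbol for 8 of 10 members. No promoter was read for Vwf and Pecam1.

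The members, the 9 gene lists and the rules for naming genes (called genes of a list, the 3 nearest genes by correlation for Vwf, Ackr1 and Car4, and the 3 called genes with the largest change in each direction) were chosen with earlier results of these data known. Other genes of the lists were named after their values were seen. Alternatives were another scaling, DESeq2 1.42.0, no filter, deeper nuclei, batch and replicate terms, and leaving out each sample.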

Additional observations from a re-analysis of the deposited data

How the results depend on the processing

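The number of genes called in endothelial nuclei, 9 in the reported fit, was 2 with DESeq2, 18 with no filter on low counts, 1 in nuclei without a mural or fibroblast UMI, where 19 genes could be tested, and 3 in nuclei with more endothelial than mural UMIs, an alternative chosen after the data had been seen. Batch as a term and inside batch 3 are the same comparison, of CON 1 and CON 2 with TESS 1. The endothelial calls were lost there. Without each sample in turn the number called was 0 to 7, with 0 without CON 3, TESS 1 or TESS 2 (97, 92 and 97 genes at an unadjusted p below 0.05). In the other nuclei the 94 calls became 144 with DESeq2, 296 with no filter, 0 in edgeR with batch as a term (1025 genes at an unadjusted p below 0.05), 5 inside batch 3 and 25 to 123 without each sample in turn. The difference in the endothelial share of nuclei ranged from -0.222 to 0.232 percentage points without each sample, turning negative without CON 2 (-0.222), TESS 2 (-0.0718) or TESS 3 (-0.0413). The causes were not tested. With the replicate number as a block the calls were 19 in endothelial nuclei and 130 in the others. Same-numbered samples had correlations of deviations of -0.121, 0.248 and 0.332 in endothelial nuclei, and differently numbered samples -0.392 to 0.195. In the other nuclei these were -0.118, -0.00383 and 0.00523 against -0.0962 to 0.114. Whether the numbers pair the samples is not stated and was not tested. No log2 fold change of a member that was called reversed its sign under any alternative run. Of 114 alternative values of the members 106 moved by less than the within-group spread between samples and 8 by more. Of 128 list medians 27 moved by more than the median spread of their genes. This spread is the SD of log2 levels between samples of a group, not the SE of a fold change. The median of the other venous genes went from -0.08 to 1.04 with no filter, since more genes then enter. Between 25 and 62 nuclei per sample limit the precision for genes with few UMIs.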
